A study of Arabidopsis thaliana with 12 samples.

Results

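WRKY proteins are plant transcription factors named after a conserved amino acid motif in their DNA-binding domain, and most of them bind a short promoter element called the W-box (TTGAC followed by C or T). In *Arabidopsis* they are best known for switching defence genes on or off downstream of MAP kinases and salicylic acid, and others act in leaf senescence, phosphate supply, seed growth and pollen. H3K27me3, in which lysine 27 of histone H3 carries 3 methyl groups, is the repressive mark set by Polycomb repressive complex 2, in which CLF is 1 of the catalytic subunits, and BRM is the ATPase of a SWI/SNF chromatin remodelling complex that antagonizes Polycomb function.

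The genes described here are those of the TAIR10 genome whose annotated symbol is WRKY followed by a number, without *WRKY8*, *WRKY12*, *WRKY13*, *WRKY23*, *WRKY28*, *WRKY43*, *WRKY48*, *WRKY57*, *WRKY68* and *WRKY71*, which belong to structural group IIc. The rule gave 57 members among 37899 annotated genes, from 67 WRKY symbols. Their numbers place 12 in group I, 3 in IIa, 8 in IIb, 7 in IId, 7 in IIe and 12 in III. The other 8 (*WRKY24*, *WRKY45*, *WRKY49*, *WRKY50*, *WRKY51*, *WRKY56*, *WRKY59* and *WRKY75*) are usually placed in group IIc as well, so the members do not lie wholly outside that group. *WRKY1*, *WRKY16*, *WRKY44*, *WRKY52* and *WRKY63* carry other symbols in the annotation and are not members, which leaves out *WRKY44* (*TTG2*), a trichome and seed coat regulator.

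H3K27me3 ChIP-seq was made from whole 14-day-old seedlings of 4 genotypes: wild-type Col, *brm-1*, *clf-29* and the double mutant *brm-1 clf-29*. The labels call the mutants brm, clf and brm clf, and the methods give the alleles, both homozygous T-DNA insertions in the Col background, of which *brm-1* is a null. Each genotype has 2 biological replicates of the ChIP and 1 input library without antibody. Mapped reads numbered 3901085 to 7277025 per ChIP library, of which 2112103 to 3654258 remained after 1 read per position and strand was kept. Levels are given as RPM (reads on the gene per 1000000 kept reads), and between genes as RPM per kb. Genotypes were compared by limma on log2(RPM + 1) over the 8 ChIP libraries, in which 51 of the 57 members had enough reads to be tested. RPM is a relative scale without an external standard, and in whole seedlings fewer cells that carry the mark and less mark per cell cannot be told apart.

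The control loci behaved differently by class. *AG*, a floral gene held by Polycomb in seedlings, overlapped an H3K27me3 region in every genotype, and the housekeeping genes *ACT7* and *TUB2* in none. The density of reads over genes without the mark was 2.99 and 3.07 RPM per kb in the Col libraries against 0.880 to 1.45 in the 6 mutant libraries. This background is the median over the unmarked genes themselves, so it describes their lower RPM in the mutants and does not explain it. The median log2 change over all 32062 tested genes was -0.75 in *brm-1* and -0.74 in *clf-29*. The 2 Col libraries differed from each other by little more than sampling noise, with a chi-square per degree of freedom of 1.02. The replicate pairs of the mutants had 1.38 to 1.99. The Col pair shared 10.9% of kept read positions, within the 9.06% to 14.3% of pairs from different genotypes. This check bears only on 1 library sequenced again. It cannot tell separate plants from libraries of the same chromatin, which was not tested. The pair was kept as 2 samples, as labelled. If its libraries are not independent, the p-values of every comparison may be too low, because limma pools the spread over the genotypes.

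Most WRKY members either carried H3K27me3 in every genotype or lacked it in every genotype, and the share that carried it differed widely between structural groups. Regions were called on 200 bp windows against the input and kept where both replicates had them, and a gene counted as marked when it overlapped such a region by at least 1 bp. In Col 26 of the 57 members were marked (45.6%), against 23.1% of all genes. In *brm-1* the count was 31 (54.4%, against 24.5% of all genes), in *clf-29* 28 (49.1%, against 21.5%) and in *brm-1 clf-29* 29 (50.9%, against 22.8%). Of the members, 25 were marked in all 4 genotypes, 7 in some of them, and 25 in none. The 10 group IIc genes left out by the rule were all marked in Col.

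Group IIb, which includes *WRKY6* and *WRKY42*, regulators of phosphate transfer to the shoot, and *WRKY72*, a positive regulator of basal immunity, was marked throughout, with 8 of 8 members in regions of all 4 genotypes. In group I only 2 of 12 were marked, *WRKY10* (*MINI3*), which promotes endosperm growth, and *WRKY58*, a negative regulator of systemic acquired resistance. Group IIa (*WRKY18*, *WRKY40* and *WRKY60*, partners that temper basal defence and abscisic acid responses) and group IId, calmodulin-binding proteins, had 0 of 3 and 0 of 7 members in a Col region. Group IIe had 4 of 7, group III 6 of 12 and the remaining IIc genes 6 of 8. In Col the median level was 40.03 RPM per kb in group IIb, 35.7 in IIe, 29.6 in IIc and 8.82 in III, but 2.23 in group I, 2.22 in IIa and 2.75 in IId. The plot of Col levels by group shows the same division member by member.

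**Figure D1:**
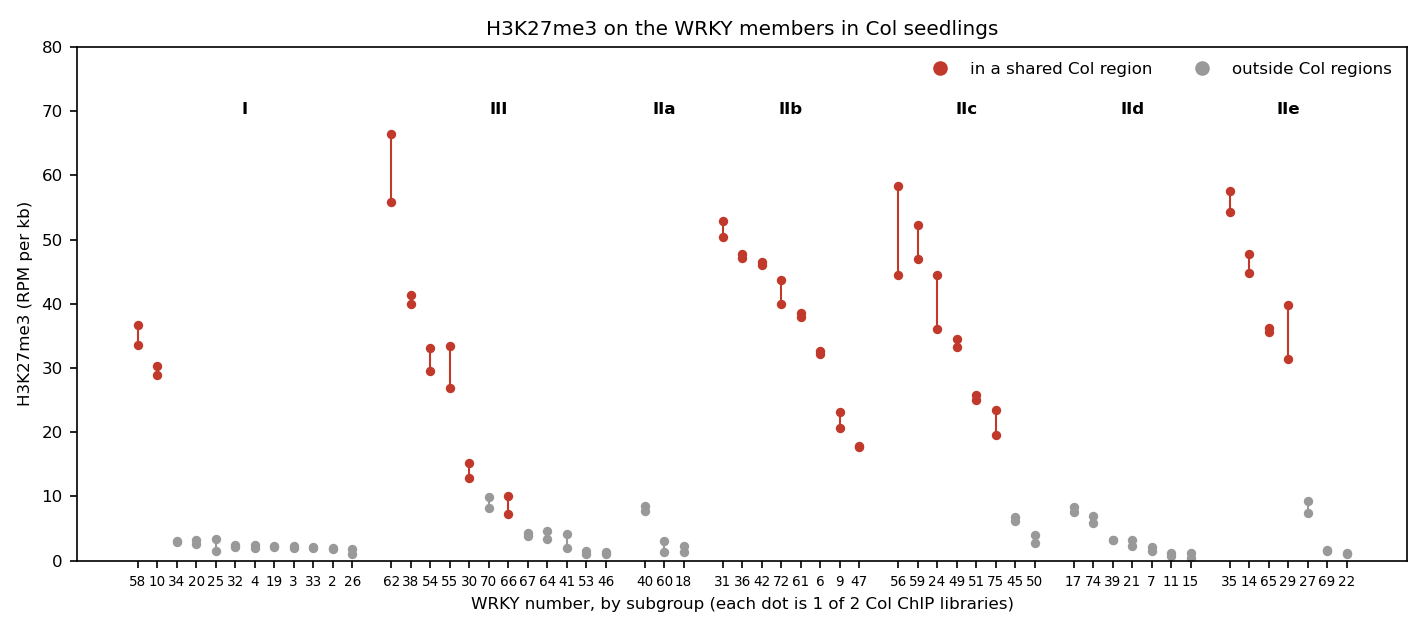
H3K27me3 in Col on each of the 57 WRKY members, in RPM per kb, ordered within each structural group. Each dot is 1 of the 2 ChIP libraries and a line joins the pair, in red for members in a shared Col region. All 8 group IIb members lie above 17 RPM per kb, while all members of IIa and IId lie below 10.

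The highest level per kb in Col was on *WRKY62*, a salicylic acid-induced group III gene that limits basal defence, with 55.9 and 66.5 RPM per kb in the 2 libraries (61.2 ± 7.50, SD, n = 2). *WRKY35* followed with 54.3 and 57.6, *WRKY31* with 50.3 and 52.9, *WRKY56* with 58.3 and 44.5 and *WRKY59* with 46.98 and 52.2. Along this order the libraries of neighbours overlapped, apart from *WRKY35* and *WRKY31*, so the ranks of *WRKY62* over *WRKY35* and of *WRKY31* over *WRKY56* and *WRKY59* lie within the spread. By the ratio of ChIP to input, which corrects for how well a gene is recovered by mapping, the order was *WRKY31* (7.19), *WRKY35* (6.69), *WRKY36* (5.86), *WRKY62* (5.57) and *WRKY59* (5.51). The 25 members marked in all genotypes held 14.0 to 61.2 RPM per kb in Col, at ratios of 2.32 to 7.19 over input, and the Col region covered 17 of them along their whole length.

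The 25 members marked in no genotype held less signal in the ChIP than in the input. Their Col levels ran from 0.741 to 4.03 RPM per kb with a median of 2.21, against a median of 2.75 over all genes outside regions, and their ratios to input from 0.122 to 0.615. They include well-studied regulators of immunity and senescence. *WRKY33*, which drives camalexin synthesis and resistance to *Botrytis*, held 5.20 and 4.97 RPM in Col, 1.39 and 2.25 in *brm-1*, 4.62 and 3.79 in *clf-29* and 3.25 and 2.24 in the double mutant. *WRKY53*, a regulator of leaf senescence, held 2.46 and 1.66 RPM in Col and at most 2.03 in any mutant library, too few reads to be tested. *WRKY22*, which acts with *WRKY29* below the flagellin receptor, was also unmarked and untested, whereas *WRKY29* was marked in all genotypes, with 69.2 and 54.6 RPM in Col. The developmental members differed as well, since *WRKY2* (pollen and zygote polarity) and *WRKY34* (pollen) held at most 7.29 and 5.96 RPM in any library and *WRKY10* held 56.3 to 77.9.

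*WRKY54* and *WRKY55* are neighbours on chromosome 2, with *WRKY54* at chr2:17000419-17002528 and *WRKY55* at chr2:16997078-16999499, and their values are not independent, since 1 region of 5800 bp covered both in Col and 1 of 5600 bp in *brm-1*. In *clf-29* the mark was in 2 separate regions, of 2000 bp over *WRKY54* and 2400 bp over *WRKY55*, and the double mutant had the same split, at 2000 and 2600 bp. *WRKY54* and its partner *WRKY70* act in salicylic acid signalling and delay senescence. *WRKY54* rose from 62.4 and 69.9 RPM in Col to 90.4 and 101.05 in *brm-1* and 109.7 and 86.2 in *clf-29* (log2 change 0.53 ± 0.12 SE and 0.55 ± 0.12, limma adjusted p = 0.00277 and 0.00102). *WRKY55* rose from 81.0 and 65.2 RPM in Col to 99.0 and 93.2 in *brm-1* and 91.2 and 96.6 in *clf-29* (limma adjusted p = 0.0101 and 0.0137). In each mutant both libraries lay above both Col libraries, for both genes. After subtraction of the background density the change of *WRKY55* in *clf-29* turned to -0.14 (limma adjusted p = 0.494). Its change in *brm-1* and those of *WRKY54* did not turn.

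Of the 7 members that gained or lost a region between genotypes, *WRKY17*, *WRKY27*, *WRKY40* and *WRKY70* acquired one over the body of the gene in at least 1 mutant, which in *brm-1* also took in sequence upstream of *WRKY27*, and *WRKY45*, *WRKY66* and *WRKY74* were touched only at an end by a region that lay mainly over a neighbour. The region of *brm-1* at *WRKY45* covered 3.35% of the gene, those at *WRKY66* at most 22.2%, and that at *WRKY74* 0.125%. In Col the 7 held 6.40 to 9.01 RPM per kb, above every member without a region and below every member marked in all genotypes.

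The 250 bases before the start of these 4 genes, and of *WRKY62* as the most strongly marked member, are shown because 4 of the 5 genes gained a region near the start in a mutant, and because WRKY factors can bind W-boxes in WRKY promoters. Capitals mark the W-box core, TTGAC or its reverse complement GTCAA, in the TAIR10.1 sequence of RefSeq, 5′ to 3′ on the strand of the gene. None of the 5 stretches overlaps another annotated gene. *WRKY17* is at chr2:10439470-10439719 (minus strand), *WRKY27* at chr5:21410519-21410768 (plus), *WRKY40* at chr1:30383311-30383560 (plus), *WRKY62* at chr5:352096-352345 (minus) and *WRKY70* at chr3:20910624-20910873 (minus).
WRKY17: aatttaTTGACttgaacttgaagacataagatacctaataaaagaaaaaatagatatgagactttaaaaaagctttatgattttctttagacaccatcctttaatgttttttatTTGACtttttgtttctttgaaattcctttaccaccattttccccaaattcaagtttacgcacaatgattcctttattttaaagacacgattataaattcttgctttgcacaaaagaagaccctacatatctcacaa
WRKY27: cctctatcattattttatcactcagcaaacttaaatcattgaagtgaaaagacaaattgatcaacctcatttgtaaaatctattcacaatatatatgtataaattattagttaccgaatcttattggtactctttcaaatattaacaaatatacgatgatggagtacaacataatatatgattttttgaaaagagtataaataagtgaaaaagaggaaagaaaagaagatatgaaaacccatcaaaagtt
WRKY40: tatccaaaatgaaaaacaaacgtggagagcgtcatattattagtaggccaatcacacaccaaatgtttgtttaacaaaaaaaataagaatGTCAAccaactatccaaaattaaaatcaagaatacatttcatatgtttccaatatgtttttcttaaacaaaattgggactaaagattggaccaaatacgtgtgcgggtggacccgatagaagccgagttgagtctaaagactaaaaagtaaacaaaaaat
WRKY62: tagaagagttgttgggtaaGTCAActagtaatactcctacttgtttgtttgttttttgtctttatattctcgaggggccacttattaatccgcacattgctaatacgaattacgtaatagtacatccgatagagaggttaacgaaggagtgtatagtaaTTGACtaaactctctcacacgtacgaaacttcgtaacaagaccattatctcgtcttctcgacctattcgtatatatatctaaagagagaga
WRKY70: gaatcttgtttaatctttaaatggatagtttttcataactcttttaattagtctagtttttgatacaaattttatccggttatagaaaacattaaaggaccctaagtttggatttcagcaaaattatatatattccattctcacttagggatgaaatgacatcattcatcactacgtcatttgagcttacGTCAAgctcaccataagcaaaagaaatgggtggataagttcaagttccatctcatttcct
*WRKY17* and *WRKY62* hold 2 cores each, *WRKY40* and *WRKY70* 1 each, and *WRKY27* none in these letters. The *brm-1* region of *WRKY27* (chr5:21410001-21412000) and the regions of *WRKY62* in every genotype include the stretch shown, while the mutant regions of *WRKY17*, *WRKY40* and *WRKY70* begin inside the gene. Over the window from 250 bases before to 50 after the start, the core was found in 38 of 57 member promoters (66.7%), against 50.5% of the promoters of all coding genes, in 18 of 25 members marked in all genotypes and in 14 of 25 marked in none. The complete W-box (TTGACC or TTGACT, each of which contains the core, on either strand) was in 23 of 57 (40.4%, against 32.4%), the telobox AAACCCTA in 2 (3.51%, against 6.22%) and GAGAGA in 21 (36.8%, against 29.2%). These are letter matches and not binding sites.

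Loss of BRM raised H3K27me3 more than 2-fold on 1 member, *WRKY27*, a group IIe gene that promotes the symptoms of bacterial wilt. It held 16.4 and 12.9 RPM in Col and 34.8 and 33.4 in *brm-1*, and the double mutant stayed at 32.5 and 36.1. Both *brm-1* libraries lay above both Col libraries, with a log2 change of 1.17 ± 0.19 (SE, limma adjusted p = 0.000332), and the region that appeared in *brm-1* covered 70.1% of the gene. In *clf-29* the gene held 22.7 and 19.9 RPM (0.52 ± 0.19, adjusted p = 0.0299), without a region, and that call was lost when Col replicate 2 (adjusted p = 0.253) or *clf-29* replicate 1 (0.127) was left out. Across all tested genes 0.346% were called higher in *brm-1* at more than 2-fold and adjusted p under 0.05, and 0.929% of the 10337 in a region of any genotype. The count of 1 was 3.13% of the 32 marked members. After subtraction of the background density of each library the log2 change of *WRKY27* was 1.39 with an adjusted p of 0.061, and with size factors over the marked genes of Col it was 0.98, just under 2-fold, with an adjusted p of 0.00042.

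Smaller rises on the RPM scale were common among the marked members in *brm-1*. By adjusted p alone 16 of 32 were higher and 0 lower, against 29.4% and 3.02% of the tested genes in regions and 9.59% and 41.7% of all tested genes, and the median log2 change was 0.26 against 0.24 for those genes. At an unadjusted p under 0.05 the counts were 17 and 0, in limma-voom as well. *WRKY31* rose from 172 and 181 RPM to 241 and 239 (0.44 ± 0.07, limma adjusted p = 0.000239), *WRKY14* from 138 and 147 to 194 and 183, and *WRKY35* from 169 and 179 to 221 and 228. In each the *brm-1* libraries exceeded the Col libraries. *WRKY70*, a group III gene that favours salicylic acid over jasmonic acid responses, rose from 15.6 and 18.9 RPM in Col to 29.5 and 27.0 in *brm-1* (0.69 ± 0.20, limma adjusted p = 0.00825), and to an adjusted p of 0.0904 without Col replicate 1. At the other end *WRKY66* held 10.7 and 7.62 RPM in Col and 6.12 and 7.14 in *brm-1* (-0.40 ± 0.31), *WRKY74* 9.30 and 11.3 against 11.4 and 8.26, and *WRKY45* 9.85 and 8.94 against 10.8 and 7.89, and none of the 3 passed the test. No change on *WRKY17* (17.8 and 15.9 RPM in Col, 14.7 and 19.2 in *brm-1*) was detectable. Scaling on the genes outside all regions, which sets the background equal, put 29 of the marked members past 2-fold at a median of 1.37, whereas size factors over the marked genes of Col gave a median of 0.06 with 5 higher by adjusted p. After background subtraction 0 were higher or lower by adjusted p, with 19 above 0 and 13 below. Whether a shared rise was seen, and its size, depended on the scaling.

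The 10 members called lower in *brm-1* (19.6% of the 51 tested, against 38.5% of all tested genes and 1.15% of those in regions) all lay outside regions, at 2.46 to 18.5 RPM in Col. They were *WRKY19*, *WRKY21*, *WRKY25*, *WRKY32*, *WRKY33*, *WRKY39*, *WRKY41*, *WRKY50*, *WRKY60* and *WRKY64*. *WRKY39* fell from 7.39 and 7.29 RPM in Col to 1.67 and 0.376 in *brm-1*, and *WRKY33* by 1.12 on the log2 scale. The background over unmarked genes fell in the same libraries. When reads were scaled on those genes, these members included, 1 member was called lower. The count was 5 without Col replicate 1, 2 without Col replicate 2 and 3 without *brm-1* replicate 2. The filter of at least 10 reads in 2 ChIP libraries can be met by the Col libraries alone, whose background was higher. An unmarked member could thus enter the test by being high in Col, which favours calls of a fall. The part of the background in these calls was not tested further.

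**Figure D2:**
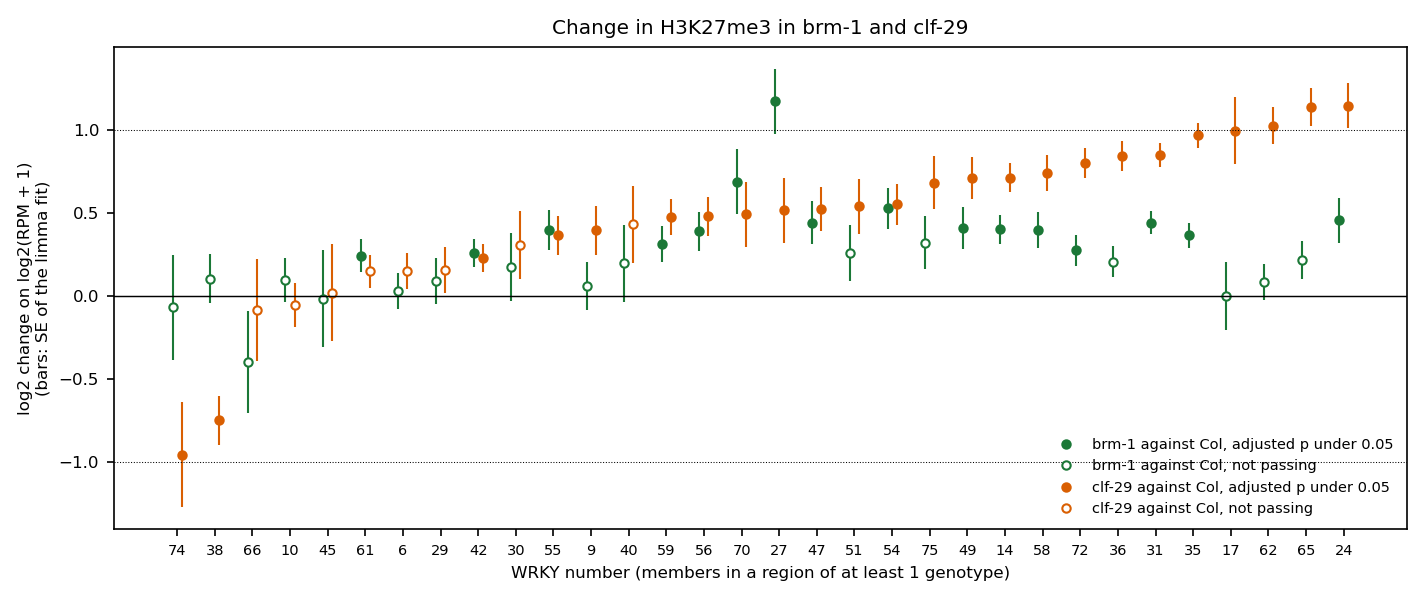
Change in H3K27me3 in *brm-1* (green) and *clf-29* (orange) against Col for the 32 WRKY members in a region of at least 1 genotype, as the log2 change of RPM + 1 with the SE of the limma fit. Filled points pass an adjusted p of 0.05 and dotted lines mark 2-fold. *WRKY27* is past 2-fold in *brm-1*, *WRKY62*, *WRKY65* and *WRKY24* are past it in *clf-29*, and *WRKY38* and *WRKY74* lie below 0 in *clf-29*.

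On the RPM scale most marked members held more of the mark in *clf-29* than in the same 2 Col libraries that *brm-1* was compared with, but this balance of rises and falls depended on how the background was treated. At more than 2-fold 3 were higher in *clf-29*, *WRKY24*, *WRKY62* and *WRKY65* (5.88% of the members tested, against 4.63% of all tested genes, and 9.38% of the marked members against 14.2% of the genes in regions). By adjusted p alone 22 of the 32 marked members were higher and 2 lower, against 43.2% and 21.1% of the genes in regions and 14.1% and 41.1% of all tested genes, and the median log2 change was 0.50 against 0.26. After subtraction of the background density the counts were 5 higher and 6 lower, with 18 members above 0 and 14 below and a median of 0.08. *WRKY65* (group IIe) rose from 59.9 and 58.9 RPM in Col to 137 and 126 (1.14 ± 0.12, limma adjusted p = 2.99e-08). *WRKY24* rose from 65.7 and 81.1 RPM to 137 and 193 (1.15 ± 0.14, adjusted p = 3.44e-07). *WRKY62* rose from 65.4 and 77.8 RPM to 149 and 144 (1.03 ± 0.11, adjusted p = 6.9e-08). None of the 3 overlapped Col. Without Col replicate 1 *WRKY62* was at 0.90 and *WRKY24* at 1.00, just below 2-fold, and *WRKY24* was at 0.90 without *clf-29* replicate 2, all still past the adjusted p. With size factors over the marked genes of Col 0 of the 3 stayed past 2-fold (*WRKY24* at 0.83), and with 500 bp added on each side of the gene 1 did. After background subtraction *WRKY24* was at 0.63 and no longer passed (adjusted p = 0.157).

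*WRKY35*, *WRKY31* and *WRKY36* rose by less than 2-fold without overlap with Col. *WRKY35* went from 169 and 179 to 357 and 325 RPM (0.97 ± 0.07), *WRKY31* from 172 and 181 to 314 and 323 (0.85 ± 0.07) and *WRKY36* from 110.3 and 109 to 184 and 212 (0.84 ± 0.09), with limma adjusted p-values of 4.38e-10, 1.17e-09 and 1.01e-07. *WRKY17*, a group IId gene that with *WRKY11* restrains basal resistance to bacteria, went from 17.8 and 15.9 RPM to 33.1 and 35.98 in *clf-29* (1.00 ± 0.20, adjusted p = 0.000424), on the 2-fold threshold but not past it. It had a region of 800 bp within the gene in *clf-29* and of 600 bp in *brm-1* and in the double mutant, where it held 25.2 and 23.6 RPM. Its group IId relatives *WRKY7*, *WRKY11*, *WRKY15*, *WRKY21* and *WRKY39* had no region in any genotype.

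*WRKY38* went the other way. This group III gene, a close partner of *WRKY62* in limiting basal defence, held 61.3 and 63.6 RPM in Col and 70.7 and 63.9 in *brm-1*, but 33.1 and 40.7 in *clf-29* and 36.1 and 36.4 in the double mutant. All 4 libraries without CLF lay below all 4 with it, with log2 changes of -0.75 ± 0.15 for *clf-29* relative to Col and -0.87 ± 0.15 for the double mutant relative to *brm-1* (limma adjusted p = 0.000273 and 8.04e-05). Its region was 6200 bp long in Col, 7400 bp in *brm-1* and 1400 bp in *clf-29*, but 5800 bp in the double mutant, which also lacks CLF. The second difference kept its direction and its call under all 24 alternatives. The first was 0.01 with size factors over all tested genes and 0.23 when scaled on unmarked genes, which raise the *clf-29* values against Col, and it was past 2-fold at -1.06 (adjusted p = 3.45e-06) with size factors over the marked genes of Col and at -1.34 (0.00508) after background subtraction. *WRKY74* also passed by adjusted p, with 9.30 and 11.3 RPM in Col and 5.39 and 4.26 in *clf-29* (-0.95 ± 0.32, adjusted p = 0.0158), at levels near those of unmarked genes. That call was lost without Col replicate 1 (adjusted p = 0.0556), Col replicate 2 (0.137) or *clf-29* replicate 2 (0.0882).

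Of the 8 members called lower by more than 2-fold in *clf-29* (15.7% of those tested, against 33.5% of all tested genes and 10.4% of those in regions) all were outside regions: *WRKY3*, *WRKY4*, *WRKY7*, *WRKY19*, *WRKY21*, *WRKY39*, *WRKY50* and *WRKY67*. *WRKY67*, with 4.38 and 4.97 RPM in Col and 1.16 and 0.473 in *clf-29*, and *WRKY50*, with 4.10 and 5.96 against 0.770 and 0.947, had the lowest log2 changes, -1.67 and -1.68. The background fell in these libraries as in *brm-1*, and Col alone could again meet the read filter. With reads scaled on the unmarked genes, these members included, 0 were called. With size factors over the marked genes of Col the count was 12, of which 2 were marked members. The count was 4 without Col replicate 1, 1 without Col replicate 2 and 5 without *clf-29* replicate 2. With reads scaled on the unmarked genes 27 marked members were past 2-fold higher at a median of 1.47. Under size factors over the marked genes of Col 12 were higher and 3 lower by adjusted p, at a median of 0.20.

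Removing CLF from *brm-1* changed no member by more than 2-fold in either direction, against 1.39% of all tested genes higher and 5.18% lower, and 2.91% and 10.6% of those in regions. The count was 0 and 0 in limma, also with an unadjusted p under 0.05, and in limma-voom. Without the 2-fold condition 16 members were higher and 1 lower at an unadjusted p under 0.05. By adjusted p alone 12 members were higher and 1, *WRKY38*, lower, all of them among the 32 marked members, against 29.7% and 21.2% of the genes in regions and 10.1% and 8.84% of all tested genes. *WRKY62* rose from 77.9 and 73.6 RPM in *brm-1* to 128 and 121 in the double mutant (0.71 ± 0.11), *WRKY65* from 63.4 and 75.5 to 123 and 114 (0.76 ± 0.12) and *WRKY24* from 90.1 and 112 to 166 and 185 (0.80 ± 0.14). The 3 genes past 2-fold in *clf-29* therefore also rose when CLF was lost without BRM, with limma adjusted p-values of 2.97e-05, 2.24e-05 and 9.79e-05. The largest rise was on *WRKY40*, at 14.5 and 22.5 RPM in *brm-1* and 37.8 and 32.2 in the double mutant (0.91 ± 0.23, adjusted p = 0.00551), which had a region of 1400 bp over 72.2% of the gene in the double mutant alone. In Col *WRKY40* held 16.4 and 14.9 RPM and in *clf-29* 26.2 and 17.5, and its call was lost without *brm-1* replicate 1 (adjusted p = 0.0984) or double mutant replicate 1 (0.103), and after background subtraction (0.83, adjusted p = 0.21). *WRKY27* showed no detectable change, with 34.8 and 33.4 RPM in *brm-1* and 32.5 and 36.1 in the double mutant (0.01 ± 0.19). *WRKY42* at -0.15 ± 0.09 and *WRKY51* at -0.10 ± 0.17 had the next lowest values after *WRKY38* and *WRKY74* (-0.54 ± 0.32), and did not pass.

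Removing BRM from *clf-29* changed 0 members by more than 2-fold in limma, in limma-voom and at an unadjusted p under 0.05, against 0.29% of all tested genes higher and 0.0624% lower, and 0.764% and 0.155% of those in regions. At an unadjusted p under 0.05 and any fold 5 members were higher and 6 lower. By adjusted p alone 1 was higher, *WRKY70*, and 0 lower, against 1.61% and 0.677% of the genes in regions and 0.571% and 0.231% of all tested genes. *WRKY70* held 28.9 and 20.8 RPM in *clf-29* and 50.3 and 43.1 in the double mutant (0.90 ± 0.20, limma adjusted p = 0.0252), so both double mutant libraries lay above all 6 others. The gene had no region in Col, 1 of 1000 bp in *brm-1* and 1 of 3400 bp in *clf-29* and in the double mutant. The longer region exceeds the gene (1913 bp) and reached past its end into the neighbouring gene AT3G56390. In *clf-29* the highest signal lay 3000 to 3250 bp after the start, past the gene, and in the double mutant 250 to 500 bp after it. The call was lost without *clf-29* replicate 2 (adjusted p = 0.257), double mutant replicate 1 (0.335) or double mutant replicate 2 (0.164), and after background subtraction (0.168). *WRKY27* (0.66 ± 0.19) and *WRKY40* (0.68 ± 0.23) were next highest and did not pass. At the other end *WRKY17* was at -0.48 ± 0.20, *WRKY51* at -0.38 ± 0.17 and *WRKY49* at -0.27 ± 0.13, none passing. The median over marked members was 0.00, and *WRKY31* was nearly the same in both genotypes, with 314 and 323 RPM against 317 and 321.

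**Figure D3:**
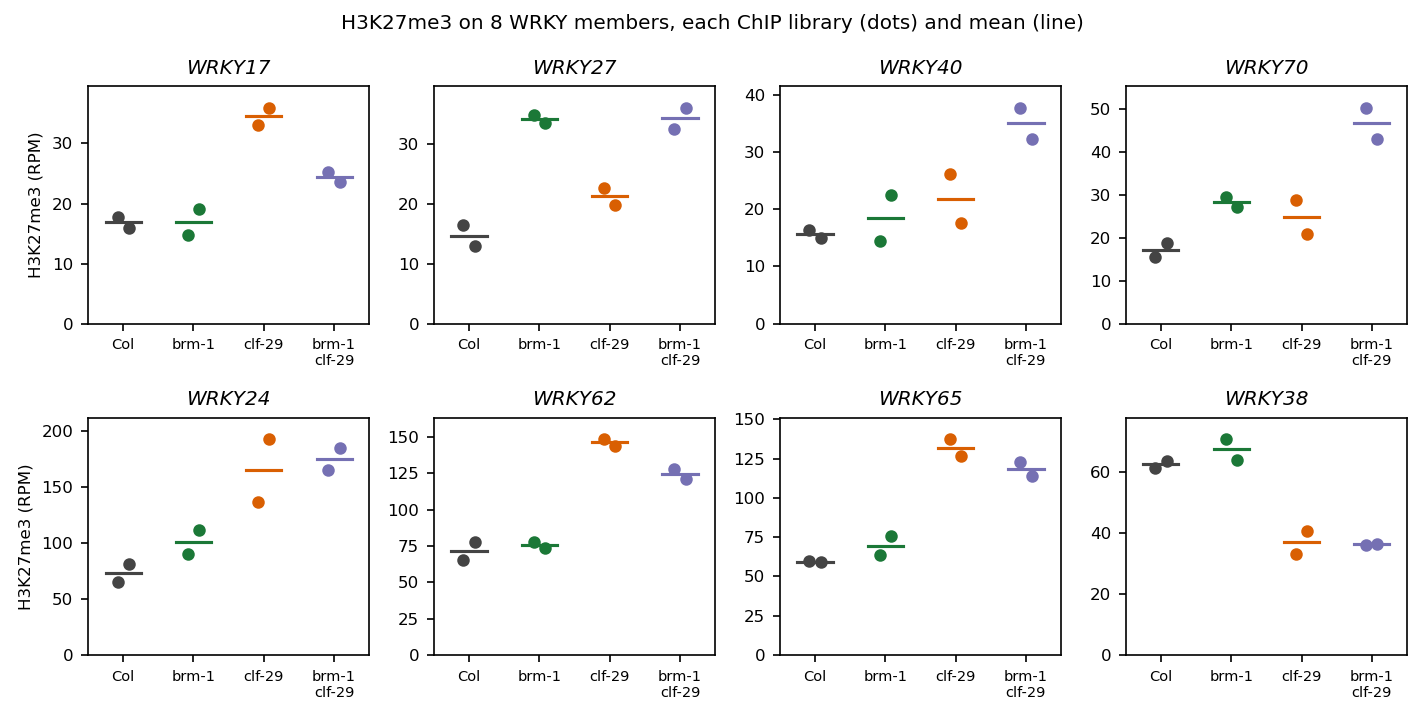
H3K27me3 in RPM on 8 WRKY members in each of the 8 ChIP libraries, as dots, with the mean of each genotype as a line. The upper row holds the members that gained a region in a mutant, with *WRKY27* high in *brm-1* and the double mutant, *WRKY17* highest in *clf-29*, and *WRKY40* and *WRKY70* highest in the double mutant. In the lower row *WRKY24*, *WRKY62* and *WRKY65* are high and *WRKY38* is low in both genotypes that lack CLF.

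The question whether BRM acts on a member in the same way with and without CLF was tested as an interaction, the change from *clf-29* to the double mutant minus the change from Col to *brm-1*. It passed for 6 members with a lower effect in *clf-29*, all of them marked. They were 11.8% of the members tested, against 2.59% of all tested genes, and 18.75% of the marked members, against 8.03% of genes in regions. For 1 member it passed with a higher effect, 1.96% of the members tested against 7.63% of all tested genes. No marked member passed in that direction, against 0.464% of genes in regions. The 6 were *WRKY14*, *WRKY31*, *WRKY35*, *WRKY42*, *WRKY49* and *WRKY72*, each of which rose in *brm-1*, by 0.26 to 0.44 on the log2 scale, and had a log2 change between -0.27 and 0.01 when BRM was removed from *clf-29*. *WRKY72* held 112 and 123 RPM in Col, 153 and 132 in *brm-1*, 203 and 207 in *clf-29* and 175 and 173 in the double mutant (-0.51 ± 0.13, limma adjusted p = 0.027). *WRKY49* held 48.7 and 47.03, then 63.1 and 64.6, then 73.2 and 85.2, and 64.5 and 66.4 RPM in the same order (-0.68 ± 0.18, adjusted p = 0.0307). For both, the *brm-1* libraries exceeded Col while the double mutant libraries lay below *clf-29*. The median difference over the 32 marked members was -0.30, against -0.22 over all tested genes in regions, and the Col libraries, whose background was higher than in all mutants, enter this difference once. The higher effect was on *WRKY19*, which lay outside regions, with 17.5 and 18.5 RPM in Col and 3.38 to 9.74 in the mutant libraries (1.62 ± 0.50, adjusted p = 0.0422). The number of calls was 0 without Col replicate 1, Col replicate 2, *brm-1* replicate 2, double mutant replicate 1 or double mutant replicate 2, and 15 without *brm-1* replicate 1. After background subtraction, and with size factors over the marked genes of Col, 0 marked members passed. With the background off the change in *brm-1* itself turned for *WRKY42* (-0.0543) and *WRKY72* (-0.0316), and did not turn for the rest of the 6.

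Along the gene, the mark of the 25 members marked in all genotypes was highest from 250 to 500 bp after the start, at 45.5 RPM per kb in Col, 56.8 in *brm-1*, 76.3 in *clf-29* and 74.2 in the double mutant. Over the first 1000 bp the mean was 39.9 and 41.4 RPM per kb in the Col libraries, 48.9 and 52.5 in *brm-1*, 63.9 and 66.3 in *clf-29* and 64.8 and 63.96 in the double mutant. Before the start, from 1500 to 500 bp upstream, Col was the lowest, at a mean of 19.7 RPM per kb against 26.7 in *brm-1*, 22.1 in *clf-29* and 25.1 in the double mutant, although the *clf-29* libraries (19.07 and 25.1) overlapped those of Col (19.3 and 20.2). The genotypes without CLF fell below Col only in the farthest window downstream. Between 3000 and 4000 bp after it, past the end of most of these genes, *clf-29* held 12.0 and 11.2 RPM per kb and the double mutant 13.6 and 13.4, below the 15.7 and 15.1 of Col and the 17.9 and 18.6 of *brm-1*. Relative to Col, *clf-29* was thus at 1.602 over the first 1000 bp and at 0.756 between 3000 and 4000 bp. The 5808 other coding genes with regions in all genotypes had ratios of 1.65 and 1.12 in the same windows. With 2 libraries per genotype an exact test of a single such value could not pass, and the difference from the other genes was not tested.

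**Figure D4:**
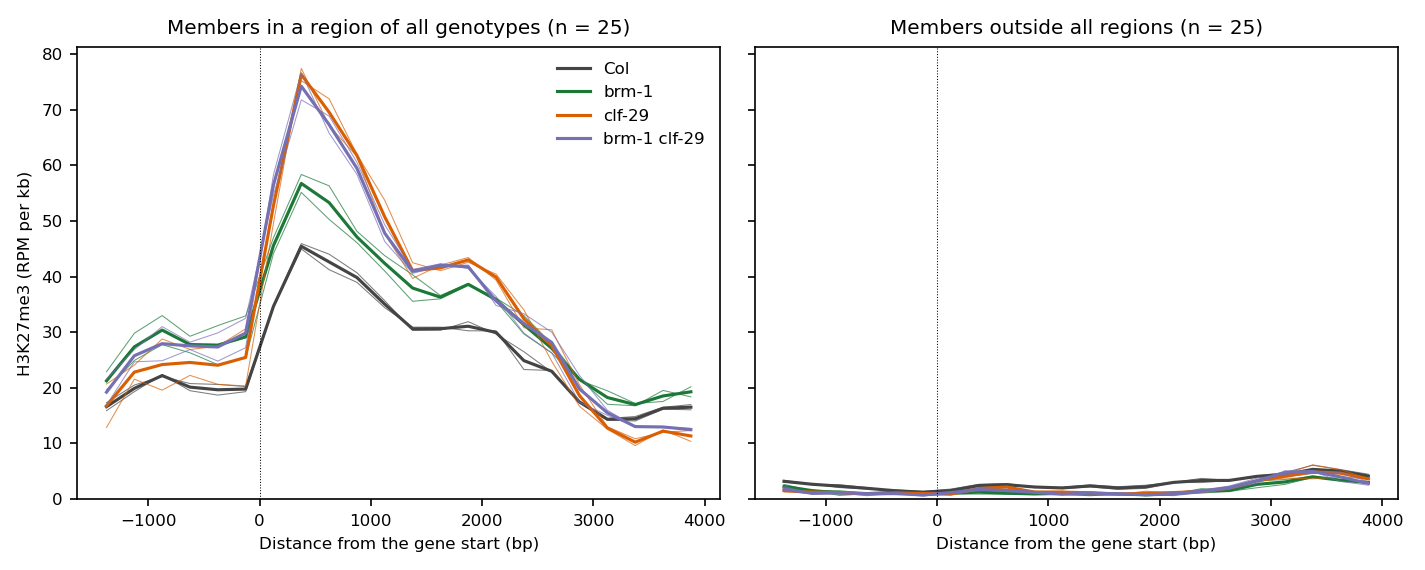
Mean H3K27me3 in RPM per kb around the gene start in bins of 250 bp, for the 25 WRKY members marked in all genotypes (left) and the 25 marked in none (right). Thick lines are genotype means and thin lines the 2 libraries. In the marked members *clf-29* and *brm-1 clf-29* are highest from 250 to 500 bp after the start and lowest towards 4000 bp, and the unmarked members stay low throughout.

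The regions over these members were shorter in the genotypes without CLF. Their median length was 5800 bp in Col, 5600 bp in *brm-1*, 3400 bp in *clf-29* and 3800 bp in *brm-1 clf-29*. The region that *WRKY54* and *WRKY55* share in Col and *brm-1* counts for both genes. Its lengths equal the medians of Col and *brm-1*. The 5808 other coding genes with regions in all genotypes had medians of 4000, 4600, 2800 and 3200 bp in the same order. In *clf-29* 22 of 25 members lay in a shorter region than in Col and 3 in a longer one (*WRKY24*, *WRKY47* and *WRKY75*), while 60.1% of the 5808 other coding genes lay in a shorter region. In the double mutant 20 of 25 were shorter, against 55.4%. In *brm-1* 17 were longer and 4, among them *WRKY54* and *WRKY55*, shorter, against 54.5% and 24.5%. At *WRKY31* the region shrank from 19200 bp over 8 annotated genes in Col to 9000 bp over 4 in *clf-29*, although the gene itself gained in RPM. At *WRKY6*, a regulator of phosphate and senescence genes, it went from 5400 to 2600 bp, with 94.1 and 95.7 RPM on the gene in Col and 109 and 102 in *clf-29*. In *brm-1* the regions at *WRKY59* and *WRKY30* extended over neighbours, from 6200 to 15800 bp and from 1200 to 5000 bp. A region is joined from windows that exceed the genome average, and region length was given for the shared regions of both replicates, so it carries no replicate error. Region calls also depend on depth and background. Kept reads were 3654258 and 3019610 in Col, 2597268 and 2112103 in *clf-29*, and 2463579 and 3131823 in the double mutant. The part of depth and background in the lengths was not tested.

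**Figure D5:**
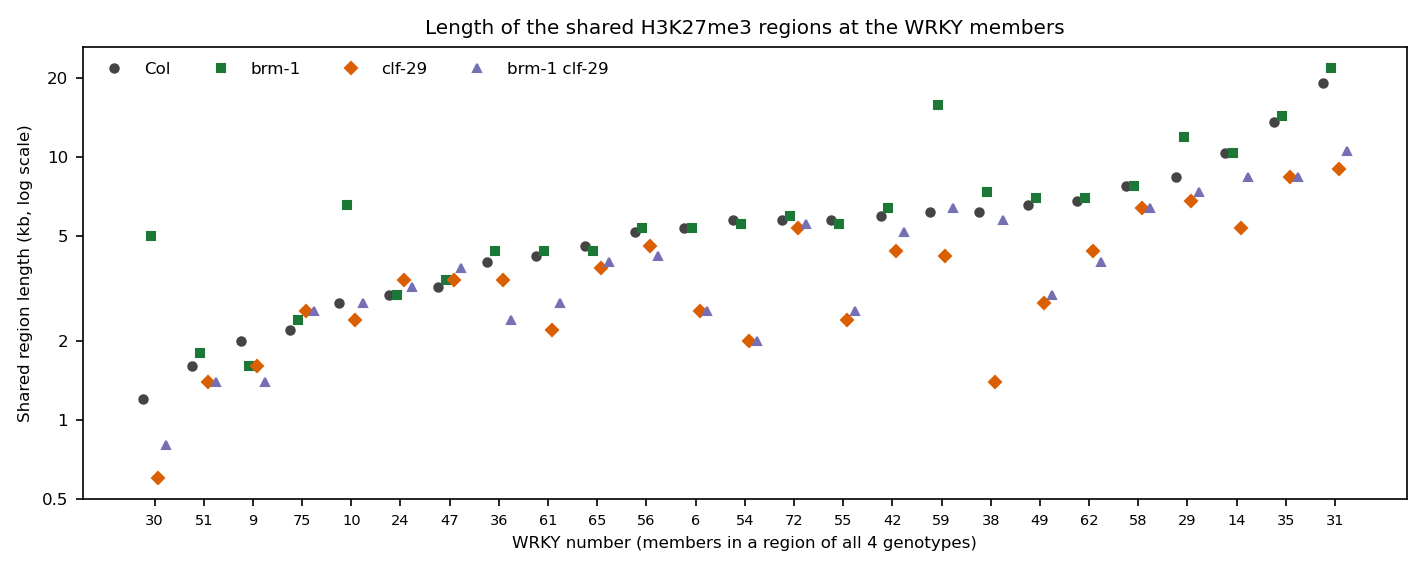
Length in kb, on a log scale, of the shared H3K27me3 regions at the 25 WRKY members marked in all genotypes, ordered by length in Col, with 1 symbol per genotype. In *clf-29* 22 of the 25 are shorter than in Col, and in *brm-1* the regions at *WRKY30*, *WRKY10* and *WRKY59* are much longer.

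Among 20 genes that act with WRKY factors in defence, including MAP kinases, salicylic acid and camalexin genes, 18 were tested and 8 lay in a region of at least 1 genotype. *PR1*, a salicylic acid marker gene, was the only one called higher in *clf-29*, from 48.98 and 47.4 RPM in Col to 116 and 109 (1.21 ± 0.11, limma adjusted p = 9.43e-09), and 3 were called lower, all outside regions, 5.56% and 16.7% of those tested against 4.63% and 33.5% of all tested genes. In *brm-1* 0 were called higher and 7 lower, all outside regions, with the fall in background and the read filter described above. The 7 were 38.9% of those tested against 38.5% of all tested genes. With CLF also removed from *brm-1* 3 were called higher and 1 lower, 16.7% and 5.56% against 1.39% and 5.18% of all tested genes. The lower one was the kinase gene *MKK5*, outside regions (8.90 and 12.0 to 4.06 and 4.47 RPM). The 3 higher were *CBP60G*, a regulator of salicylic acid synthesis (28.9 and 24.04 to 63.3 and 50.4 RPM), *SIB1*, whose protein binds *WRKY33* (15.9 and 12.8 to 34.1 and 33.5 RPM), and *EDS1* (1.95 and 0.751 to 5.28 and 3.19 RPM, outside regions). The *EDS1* call rests on 7 and 2 reads in *brm-1*. The calls of these 20 genes were not examined under the alternative settings. With BRM also removed from *clf-29* 0 passed 2-fold, and *SARD1*, the partner of *CBP60G*, passed by adjusted p alone at 0.84 ± 0.16 (adjusted p = 0.00618).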

How the data were processed

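H3K27me3 ChIP-seq was analysed in 8 ChIP libraries (2 per genotype) and 4 inputs, grouped by GEO's labels. The deposited files hold read positions that the authors made with Bowtie 0.12.7 from reads mapped perfectly and uniquely to TAIR10, and the submitters' processing notes also name SICER 1.1. No count table was used, so the positions of the 51 bp reads were counted here.

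Per position and strand 1 read was kept (38.6% to 53.3% of ChIP reads were redundant, 3421391 to 4291138 input reads remained), shifted 75 bp towards the fragment centre and counted over the genes of the RefSeq TAIR10.1 annotation, those under 1000 bp widened to that length. Its nuclear chromosomes have the coordinates of TAIR10. Counts were scaled to 1000000 kept reads (RPM). Genes with at least 10 reads in 2 ChIP libraries (32062 of 37899) were tested as log2(RPM + 1) with limma 3.58.1 in R 4.3.3, trend fitted, in 1 model of the 4 genotypes. A gene was called where it changed by over 2-fold with a p under 0.05 after Benjamini-Hochberg adjustment, and the interaction of both mutations needed that p alone. The pseudocount understates the change of low genes. Regions joined 200 bp windows (Poisson p under 0.2, gaps up to 600 bp) that exceeded the input at an adjusted p under 0.01 in an exact binomial test, in both replicates. A read has no molecular identifier. The SE and p-values of limma rest on the spread between the replicate libraries of each genotype, which in Col was little above sampling noise. The procedures were tested on simulated data with the same background in all genotypes, so that test does not cover the lower background of the mutants.

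The members described library by library were those in a region and called, the highest in Col, a short list of defence and developmental genes, and the 3 largest rises and falls of each comparison among members in a region. Members and lists were chosen with earlier results of these data known. Alternatives changed the scaling, background, pseudocount, filter, read handling, gene window, test and replicates. Testing only the genes in regions and summing the Col libraries were chosen after seeing the data.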

Additional observations from a re-analysis of the deposited data

Results flagged for a closer look

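The effect of *brm-1* differed between the CLF and *clf-29* backgrounds for 7 members by the test of the difference itself (limma adjusted p from 0.0203 to 0.0462). On the log2 scale the difference was -0.39 for *WRKY14*, -0.44 for *WRKY31*, -0.38 for *WRKY35*, -0.38 for *WRKY42*, -0.68 for *WRKY49* and -0.51 for *WRKY72*, which all lie in regions of every genotype. For *WRKY19*, outside all regions, it was 1.62. The median difference was -0.30 over marked members and 0.74 over unmarked ones, and the background density was 2.99 and 3.07 RPM per kb in Col against 0.880 to 1.45 in the mutants. The part of the background in these differences was not tested.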

How the results depend on the processing

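The number of members that overlapped a region in each genotype changed little, whereas the counts of called members depended on the scaling. With size factors over all tested genes, over the genes in Col regions, with scaling on genes outside all regions and with the background taken off, the members called higher in *brm-1* numbered 23, 0, 29 and 0, in place of 1, and those called lower 1, 16, 1 and 0, in place of 10. The members called higher in *clf-29* numbered 24, 0, 27 and 1, in place of 3, and those called lower 0, 12, 0 and 2, in place of 8. The members whose *brm-1* effect differed between backgrounds numbered 27, 3, 27 and 0, in place of 7. For *brm-1 clf-29* 1 member was lower than in *brm-1* with the background off and also with 500 bp on each side, and 1 higher than in *clf-29* with scaling on genes outside regions, in place of 0. A pseudocount of 4 RPM, testing only genes in regions, summing the Col libraries, and an adjusted p under 0.01 gave 2, 0, 2 and 4 members lower in *brm-1*, 1, 0, 1 and 4 lower in *clf-29*, and 13, 4, 0 and 0 with a differing *brm-1* effect. Flanks of 500 bp gave 1 higher in *clf-29* and 12 with a differing effect, and a pseudocount of 0.25 RPM gave 3 of the latter. The members called lower in the main setting all lay outside regions, and testing only genes in regions leaves them out. Its 0 lower in both mutants was thus fixed in advance. For the other settings the cause was not tested.

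With the background off the directions were nearly balanced, with 19 of 32 marked members above 0 and 13 below in *brm-1*, and 18 and 14 in *clf-29*, in place of 28 and 4 in both. Of 64 single values examined there 11 kept direction and call, 43 lost the call and 10 turned. Among those that turned, the log2 change in *brm-1* was -0.0563 for *WRKY61*, -0.004 for *WRKY59*, 0.0358 for *WRKY33*, -0.0543 for *WRKY42* and -0.0316 for *WRKY72*, and in *clf-29* -0.0706 for *WRKY56*, -0.0683 for *WRKY9*, -0.0761 for *WRKY59*, -0.14 for *WRKY55* and -0.32 for *WRKY42*. *WRKY42* was at -0.0863 in *clf-29* with size factors over Col regions, and *WRKY38* at 0.0145 with those over all tested genes and 0.23 with scaling on genes outside regions.

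Leaving out 1 replicate at a time gave 1 to 1 members higher and 2 to 12 lower in *brm-1*, 2 to 4 higher and 1 to 8 lower in *clf-29*, 0 to 1 higher and 0 to 0 lower in both comparisons of the double mutant, and 0 to 15 with a differing *brm-1* effect. Members in regions numbered 27 to 28 in Col, 31 to 32 in *brm-1*, 28 to 28 in *clf-29* and 29 to 31 in the double mutant. The replicate numbers do not pair the samples (correlations of same-numbered deviations -0.0116 to 0.105), and the replicate block gave 13 members with a differing effect and changed no other call.

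Depth limits the unmarked members most, which held 0 to 64 reads per ChIP library, and 2 libraries per genotype limit every comparison.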
